A study of Mus musculus with 2 samples.

Results

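Sox9, Sox10, Ets1, Foxd3, Erbb3, Snai1 and Snai2, a set of neural crest genes, were described in cells of the mouse mandibular arch at E9.5. They are 7 of the 31053 genes listed for that stage and were chosen by symbol. The E9.5 library held unsorted cells of mandibular arches pooled from 8 littermates of the genotype K14Cre;R26mT/mG, with epithelium and mesenchyme together. A second library held GFP-positive epithelial cells, sorted after dissection of 6 littermates of that genotype at E12.0, and it served as a reference of cells outside the neural crest. In the E12.0 embryos, Cre driven by the Keratin 14 promoter had switched a membrane reporter from tdTomato to GFP in epithelium. The paper places the start of this labelling after E9.5. There was 1 library of pooled embryos per stage, so no difference below has a replicate check and no test was made. Every interval is a 95% interval that covers counting error only.

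Neural crest cells arise at the border of the neural plate, leave the epithelium and migrate into the pharyngeal arches, where they form most of the mesenchyme. Transcription factors of the Snail, Forkhead, Ets and SoxE families mark their specification and departure. As the cells settle in the arch, those that form skeletal and connective tissue take on Twist1 and Prrx1, whereas those of the glial lineage keep Sox10. Many of these factors are also used elsewhere, Ets1 in vessels, Snai2 in limb, muscle and epidermal precursors, and Sox9 in cartilage and in branching or stem-like epithelia.

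The genes lie on 7 chromosomes of GRCm38, by the GENCODE annotation. The SoxE genes are Sox9 (ENSMUSG00000000567) at chr11:112782224-112787760 on the plus strand and Sox10 (ENSMUSG00000033006) at chr15:79154908-79165240 on the minus strand. The Snail genes are Snai1 (ENSMUSG00000042821) at chr2:167538195-167542814 on the plus strand and Snai2 (ENSMUSG00000022676) at chr16:14705852-14709385 on the plus strand. The other transcription factor genes are Ets1 (ENSMUSG00000032035) at chr9:32636221-32757820 on the plus strand and Foxd3 (ENSMUSG00000067261) at chr4:99656299-99658622 on the plus strand. The receptor gene is Erbb3 (ENSMUSG00000018166) at chr10:128567523-128589652 on the minus strand. An antisense gene, Gm27240, overlaps Ets1 on the opposite strand, and annotated miRNA genes overlap Foxd3 (Gm23366) and Erbb3 (Mir6917) on the same strand. Whether these overlaps affect the counts was not tested.

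Promoter sequences were printed and searched for the letters of motifs that Snail and SoxE factors can bind. Of the 7 genes, 2 matched by symbol in the RefSeq table for GRCm38.p6, and the 250 bases before their annotated starts are given from 5′ to 3′ on the plus strand. The Snai1 stretch lies at chr2:167537945-167538194 and the Foxd3 stretch at chr4:99656049-99656298. Capitals mark CACCTG, the letters of an E-box that Snail proteins can bind, and ACAAAG, a core of Sox motifs.
Snai1: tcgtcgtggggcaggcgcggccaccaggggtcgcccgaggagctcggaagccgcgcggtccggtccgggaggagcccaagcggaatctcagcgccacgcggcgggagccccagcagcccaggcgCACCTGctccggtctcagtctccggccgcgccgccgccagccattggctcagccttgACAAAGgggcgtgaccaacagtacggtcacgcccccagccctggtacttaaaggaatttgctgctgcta
Foxd3: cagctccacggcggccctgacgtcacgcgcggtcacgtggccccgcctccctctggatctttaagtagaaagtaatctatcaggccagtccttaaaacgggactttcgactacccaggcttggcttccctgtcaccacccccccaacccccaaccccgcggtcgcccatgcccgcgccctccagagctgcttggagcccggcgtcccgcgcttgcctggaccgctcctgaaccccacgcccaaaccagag
In the Snai1 stretch, CACCTG began 126 bases and ACAAAG 69 bases before the start. The search covered both strands, so that each set of letters was also looked for as its reverse complement, and it included ACAATG, a further Sox core. No match was found in the Foxd3 stretch. Among 32851 promoter stretches of the same length, 17.2% held the E-box on either strand, 16.5% the first Sox core and 10.7% the further one. A match is a description of the letters and not a measured binding site.

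After cells with fewer than 200 or more than 5500 detected genes or over 10% mitochondrial UMIs were removed, 12744 of 14293 barcodes remained at E9.5 and 11355 of 11663 at E12.0. Median depth was 13461 UMIs per cell at E9.5 and 6349 at E12.0. A UMI is 1 counted transcript molecule. Levels are given as CPM, a gene's UMIs in all cells of a group, scaled to a group total of 1000000 UMIs. Because the reads come from transcript ends and were not scaled by length, CPM was compared between groups of cells for 1 gene, and not between genes. Of the barcode sequences, 51 occurred in both libraries.

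The E9.5 cells were divided by markers. Epcam, an epithelial adhesion molecule, had no UMI in 7928 cells (62.2%) and at least 1 UMI in 4816 cells (37.8%). The Epcam-negative cells carried 1179 CPM of 4 mesenchymal markers summed (Twist1, Prrx1, Pdgfra, Prrx2), against 89.1 CPM in cells with 10 or more Epcam UMIs and 0.962 CPM in the E12.0 epithelium. Epcam-negative cells were further ordered by Twist1+Prrx1 UMIs per 10000 UMIs. Of them, 1332 had none, and the others were cut into equal-sized low (2199 cells), middle (2198) and high (2199) bins at 7.06 and 11.1. The bins were not pure. Cells with endothelial markers made up 14.2% and cells with muscle progenitor markers 16.3% of the Twist1+Prrx1-zero cells. In the low bin they made up 9.64% and 19.0%. The 5 epithelial markers (Epcam, Cdh1, Krt8, Krt18, Cldn6) summed to 420, 149, 69.4 and 48.3 CPM from the zero cells to the high bin, without any Epcam UMI. The part of this makeup in the differences between bins given below was not tested. The zero cells were also shallow, with a median of 3645 UMIs against 15484 in the high bin.

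Sox10, a SoxE factor of migratory crest and glia, had 23.5 CPM (22.6 to 24.5) in Epcam-negative cells and 8.70 CPM (8.01 to 9.44) in Epcam-positive cells. Along Twist1+Prrx1 its level was 3.75, 22.7, 28.3 and 24.2 CPM in the zero, low, middle and high bins. The largest step therefore lay between the zero cells and the rest. The middle bin (26.5 to 30.2) lay above the low bin (20.9 to 24.6) and the high bin (22.6 to 26.0). The low and high bins did not differ beyond counting error (log2 ratio 0.09, interval -0.06 to 0.25). Among Epcam-negative cells 19.6% held a Sox10 UMI, or 8.05% after each cell was thinned to 4000 UMIs. The endothelial-marker cells (416 cells, median 14287 UMIs), which are not expected to express Sox10, held one in 5.05% of cells, or 2.30% after thinning. No cell had more than 8 Sox10 UMIs. Sox10 thus stood above the level in endothelial-marker cells in all bins but the zero cells, where it was 3.75 CPM against 3.71 CPM.

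Sox9, the SoxE factor needed for cartilage and present in premigratory crest, followed Twist1+Prrx1 more closely. It measured 20.1 CPM (17.2 to 23.5) in the zero cells, 57.1 (54.3 to 60.1) in the low bin, 108 (104 to 112) in the middle bin and 125 (121 to 129) in the high bin. None of these 4 intervals overlapped. Epcam-negative cells as a whole had 92.6 CPM and Epcam-positive cells 46.6 CPM, a ratio of 1.99. Endothelial-marker cells held 12.5 CPM and muscle progenitor-marker cells 31.1 CPM.

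Foxd3, a winged-helix factor of early crest, was close to absent. Only 78 UMIs were counted in 166191431, and 61 of them lay in Epcam-negative cells (0.611 CPM, 0.468 to 0.785). They were found in 0.694% of those cells. The low bin held 32 of them (1.18 CPM, 0.804 to 1.66), the middle bin 20, the high bin 8 and the zero cells 1. Foxd3 was thus higher in the low than in the high bin, with a log2 ratio of high over low of -2.22 (-3.55 to -1.07). At E12.0 it had 0 UMIs of 77936364, which allows up to 0.0385 CPM.

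Ets1, an Ets factor of cranial crest and of endothelium, was near level along Twist1+Prrx1, with 79.5, 73.9, 72.3 and 62.0 CPM from the zero cells to the high bin. Its highest level was in endothelial-marker cells, at 191 CPM (180 to 203), where 77.6% of cells held a UMI. Cells that passed no lineage gate and had no Epcam UMI (6308 cells, called ungated here) had 63.0 CPM (61.2 to 64.8), and muscle progenitor-marker cells 20.9 CPM. The 7 endothelial markers summed to 637 CPM in the zero cells, 242 CPM in the low bin and 11.2 CPM in the high bin, and their part in the Ets1 level of these bins was not tested. When each cell was weighted equally, Ets1 in the high bin lay 0.15 above the zero cells on the log2 scale, and not below them.

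Snai1 and Snai2, zinc-finger repressors of epithelial adhesion genes, parted from each other. Snai1 measured 10.9, 40.8, 72.9 and 70.5 CPM from the zero cells to the high bin. Snai2 ran the other way, at 28.3, 22.7, 15.1 and 15.7 CPM. Of the E9.5 lineage and epithelial groups, muscle progenitor-marker cells had the highest Snai2 level, 48.3 CPM (43.8 to 53.2), and 41.9% of these cells held a UMI. In the same cells Snai1 was at 13.5 CPM (11.2 to 16.2), against 66.7 CPM in ungated cells.

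Erbb3, the receptor through which neuregulin reaches crest-derived glia, was the only one of the 7 genes with a higher level in Epcam-positive than in Epcam-negative E9.5 cells. Epcam-negative cells had 8.47 CPM (7.91 to 9.06) and Epcam-positive cells 17.8 CPM (16.8 to 18.8). Within the Epcam-negative cells it measured 2.38 CPM in the zero cells and between 8.52 and 9.77 CPM in the other bins. Endothelial-marker cells had only 5 Erbb3 UMIs (0.843 CPM).

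**Figure D1:**
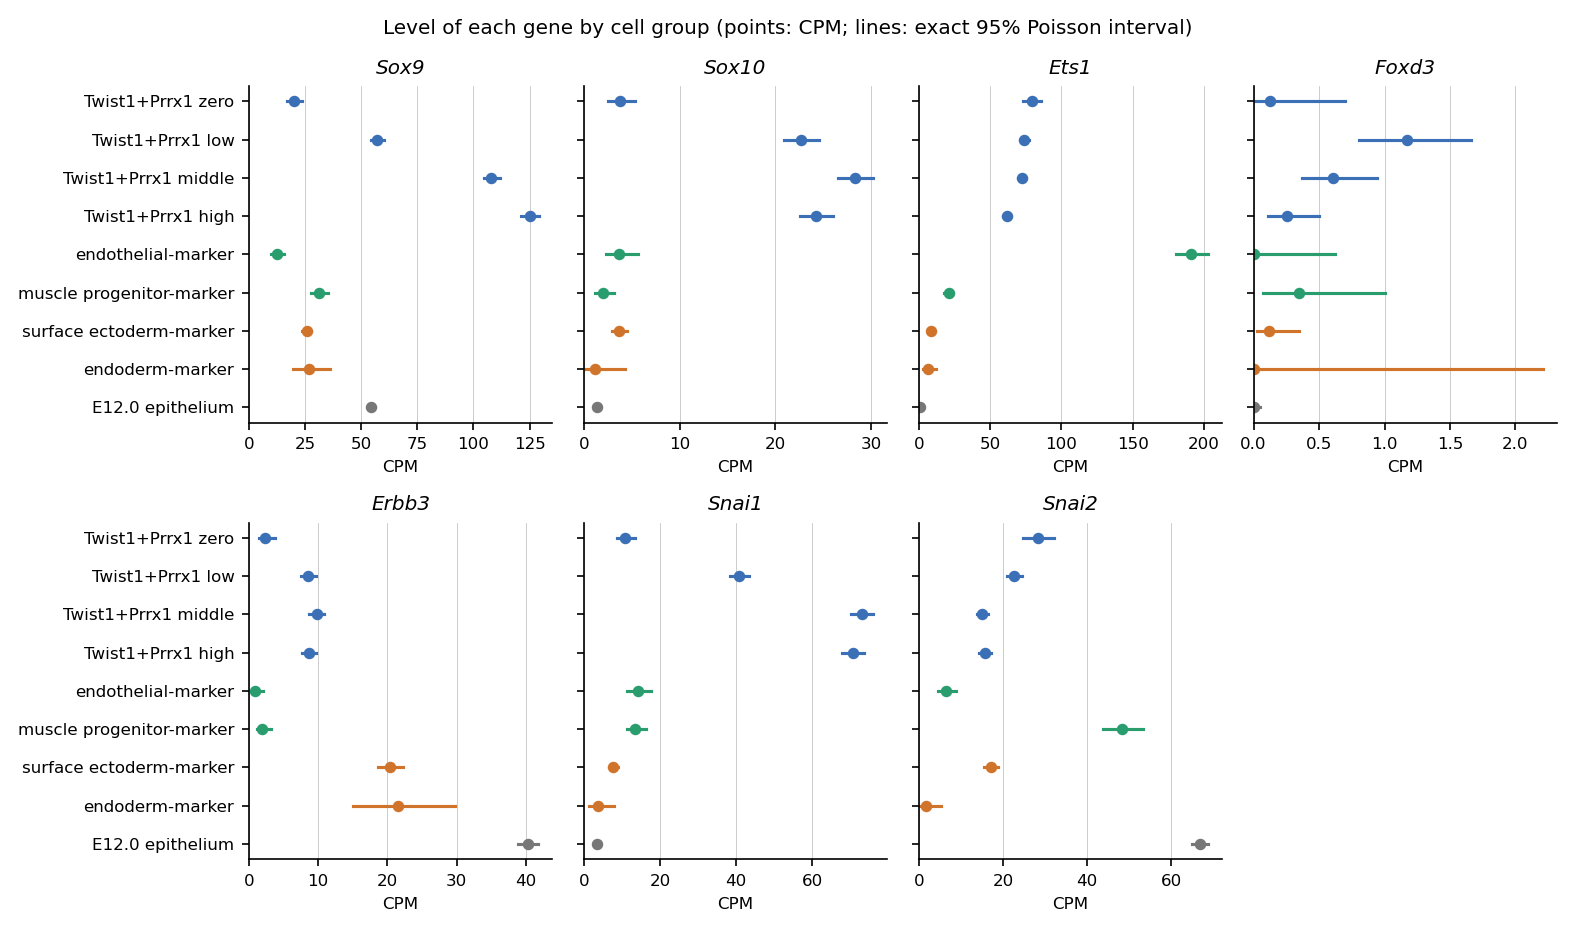
CPM of each gene (x axis, linear from 0, a separate scale per gene) in 8 groups of E9.5 cells and in the E12.0 epithelium (y axis), with 95% Poisson intervals as lines; blue, Twist1+Prrx1 bins; green, lineage-marker cells; orange, epithelial groups; grey, E12.0. Sox9 reaches 125 CPM in the high bin, Ets1 191 CPM in endothelial-marker cells, Snai2 48.3 CPM in muscle progenitor-marker cells, and Erbb3 and Snai2 peak in the E12.0 epithelium.

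Genes were called higher or lower where the CPM of 2 groups differed at least 2-fold after 5 CPM were added to both and the gene had at least 20 UMIs over both groups. Between Epcam-negative and Epcam-positive cells, 3 of the 7 genes were called higher in the former, namely Ets1 (log2 fold 1.25), Snai1 (1.23) and Sox10 (1.06), where 0.478% of 15916 genes were. Sox9 came next at 0.92. Snai2 stood at 0.14, Foxd3 at 0.09 and Erbb3 at -0.76, and none of the 7 was called lower, where 2.48% of all genes were. At 0.611 and 0.256 CPM, Foxd3 could not be called either way once 5 CPM were added. Without added CPM its log2 ratio was 1.26 (0.46 to 2.13), and that of Erbb3 was -1.07 (-1.20 to -0.94). Of 16 ectomesenchyme genes, a list of arch mesenchyme factors and receptors, 9 were higher and none lower, with a median of 1.10 against -0.04 over all genes. Of 13 other crest specifier or migration genes tested, Cdh6, a cadherin of crest cells, was higher (1.26) and the remaining 12 were not called. The 7 neural plate border genes tested held no call, with a median of 0.40. Of 11 genes of epithelial-mesenchymal transition and adhesion, Zeb2 (1.37), Zeb1 (1.27) and Vim (1.25) were higher in Epcam-negative cells and 6 epithelial genes were lower, among them Cldn6 (-3.49), Cdh1 (-2.72) and Crb3 (-2.55).

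Between the high bin and the zero cells, Sox9 (2.37), Snai1 (2.25) and Sox10 (1.74) were called higher, 3 of the 6 genes tested, where 0.998% of 12924 genes were. Erbb3 stood at 0.88, Ets1 at -0.33 and Snai2 at -0.68, and none of these was called, where 5.2% of all genes were called lower. Foxd3 had too few UMIs. Of the 5 cartilage genes regulated by Sox9 that could be tested, Col9a1 (1.49), Col2a1 (1.11) and Col9a3 (1.06) were higher in the high bin, and Col11a1 (0.36) and Col9a2 (-0.37) were not called. Sox8, the remaining SoxE gene, was at 9.43 CPM in the high bin and 0.876 CPM in the zero cells (1.30). Among neural plate border genes 4 of 6 were higher, led by Dlx5 (3.16), a homeobox gene that is also used in arch mesenchyme. The other crest specifier or migration genes were divided, with 4 of 13 higher and 3 lower. Of 10 genes of epithelial-mesenchymal transition and adhesion, none was higher and 4 were lower. Against the low bin, only Sox9 of the 7 genes was called higher in the high bin (1.07), where 0.124% of 13681 genes were, and Snai1 reached 0.72. None was called lower, where 1.89% were. Foxd3, at 0.252 CPM in the high and 1.18 CPM in the low bin, could not be called once 5 CPM were added.

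Cells of the endothelial and muscle progenitor gates were set against the ungated cells, which exclude every cell that passed any gate. In endothelial-marker cells Ets1 was called higher (1.53), where 5.97% of 14130 genes were. Sox9 (-2.67), Snai1 (-1.90), Sox10 (-1.78) and Erbb3 (-1.27) were called lower, where 1.6% were. In muscle progenitor-marker cells (654 cells) Snai2 was higher (1.29), where 2.56% of 14175 genes were. Sox10 (-2.11), Snai1 (-1.95), Sox9 (-1.63), Ets1 (-1.39) and Erbb3 (-1.02) were lower, where 0.854% were. Nrg1, which encodes a ligand of Erbb3, measured 74.5 CPM in these muscle progenitor-marker cells and 0.987 CPM in ungated cells (3.73). The gene for the ligand and that for the receptor thus had opposite levels between these groups. Erbb2, the partner receptor, was at 13.5 and 10.7 CPM (0.24) and was not called.

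The cells with the most Sox10 UMIs were examined next. Epcam-negative cells held 0, 1, 2 or at least 3 Sox10 UMIs in 6377, 1064, 300 and 187 cells. Foxd3 measured 0.231, 1.00, 1.26 and 5.53 CPM over these classes, so that the 187 cells held 20 of the 61 Foxd3 UMIs. Erbb3 measured 5.84, 12.2, 16.9 and 31.3 CPM, and Ets1 60.7, 83.4, 100 and 151 CPM. Both increased at every step with no overlap between the lowest and highest classes. Sox9 did not follow, with 90.4, 104, 94.0 and 80.8 CPM, and Snai1 was at 53.0 CPM without Sox10 and between 70.5 and 76.1 CPM with it. Snai2 was at 20.3 CPM without Sox10 and at 11.1 CPM (7.91 to 15.1) in the highest class. Twist1 was at 677 CPM in the 187 cells and Prrx1 at 180 CPM, against 595 and 248 CPM in all Epcam-negative cells, which include cells without either. The 4 mesenchymal markers summed to 1131, 1351, 1320 and 1117 CPM over the classes. The class without Sox10 held 161 CPM of the summed endothelial and 92.5 CPM of the summed muscle progenitor markers, against 11.6 and 8.85 CPM in the highest class. The classes also differed in depth, with medians of 12353, 16065, 18642 and 19337 UMIs per cell, and the part of depth and makeup in these differences was not tested.

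**Figure D2:**
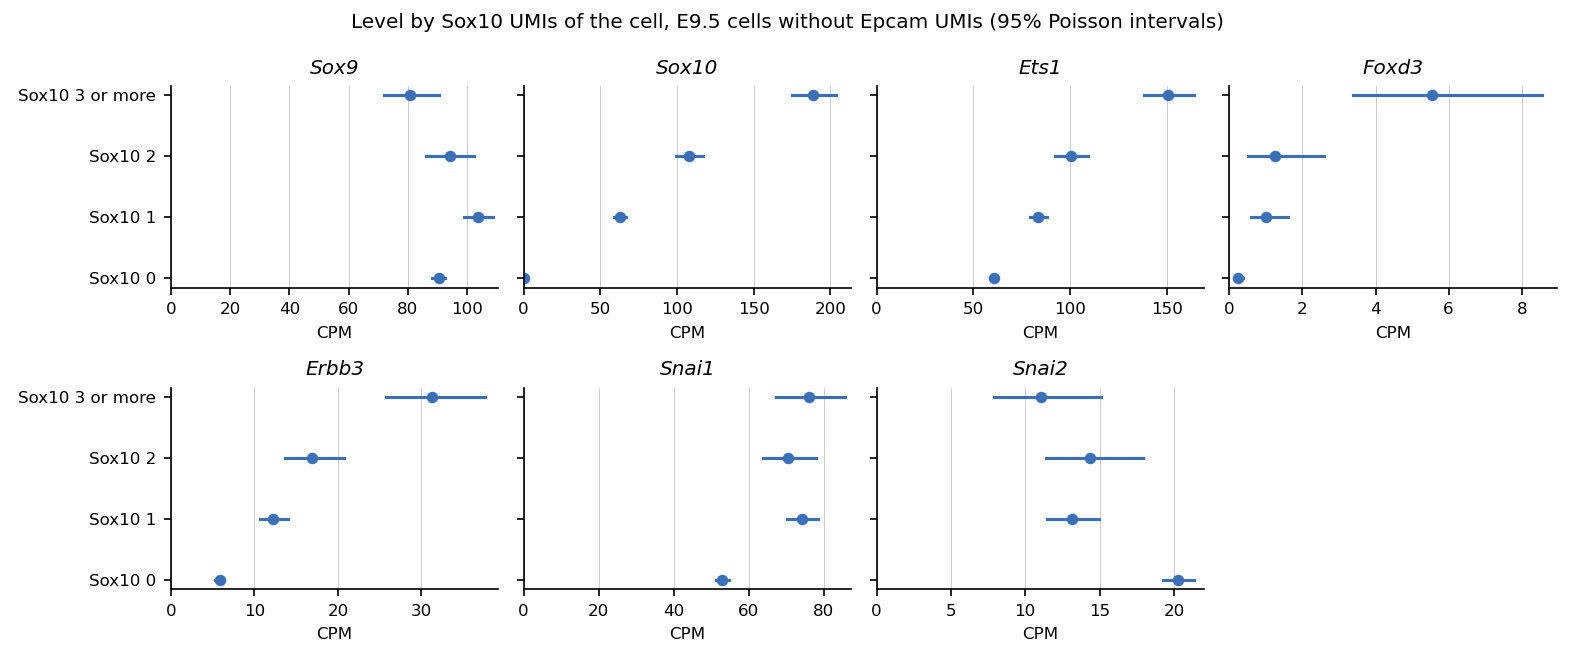
CPM of each gene (x axis, linear from 0) in Epcam-negative E9.5 cells with 0, 1, 2 or at least 3 Sox10 UMIs (y axis), with 95% Poisson intervals; the Sox10 panel shows the classes themselves. Foxd3, Erbb3 and Ets1 are highest in the top class, at 5.53, 31.3 and 151 CPM, and Sox9 is not.

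Whether members were found in the same cells was asked of the 6423 Epcam-negative cells with at least 4000 UMIs, each thinned to that number. No member was found in 2561 of them (39.9%), 1 in 2497 (38.9%), 2 in 1069 (16.6%), 3 in 265, 4 in 30 and 5 in 1. A pair was set against the product of its shares, which is the number of joint cells if detection of each were unrelated. Of 21 pairs, 6 lay above it with an interval clear of 1. Sox10 and Foxd3 were found together in 7 cells against 1.45 (ratio 4.83, 1.94 to 9.95). Sox10 and Erbb3 shared 31 cells against 15.1 (2.06, 1.40 to 2.92), and Ets1 and Erbb3 67 against 39.8 (1.68, 1.31 to 2.13). Sox10 and Ets1 shared 170 cells against 110 (1.54, 1.32 to 1.79). The remaining pairs were Sox10 with Snai1 (1.22, 1.01 to 1.46) and Sox9 with Snai1 (1.19, 1.08 to 1.31). Beside these, 2.71% of 10463 genes lay above the product with Sox10, 4.8% with Ets1, 2.74% with Erbb3, 1.75% with Snai1 and 2.96% with Sox9, and 0.851% of 10464 with Foxd3.

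Snai2 was found with Erbb3 in 5 cells against 13.1 (0.381, 0.124 to 0.888) and with Sox10 in 23 cells at a ratio of 0.634, the 2 pairs whose intervals lay below 1. Of all genes, 1.38% lay below the product with Snai2, 1.62% with Erbb3, 5.69% with Sox10, 8.5% with Sox9, 4.66% with Ets1, 7.02% with Snai1 and 0.124% with Foxd3. No pair with Snai2 lay above the product, where 5.58% of all genes did. Snai1 and Snai2 had a ratio of 0.793 (0.616 to 1.00), and Sox9 and Sox10, both SoxE genes, one of 1.10 (0.939 to 1.28). Fewer pairs stood out among ungated cells, which were fewer and still mixed. Of the 6308 ungated cells, 880 were Twist1+Prrx1-zero cells, and the ungated cells held 131 CPM of the 5 epithelial markers summed. In the 4842 thinned ungated cells 3 pairs remained above, Sox10 with Ets1 (1.47, 1.23 to 1.74), Sox10 with Foxd3 (3.85, 1.05 to 9.86) and Ets1 with Erbb3 (1.62, 1.22 to 2.11), and Sox9 with Snai1 was at 1.06 (0.959 to 1.17). Sox9 and Foxd3, with 0 joint cells against 3.87, formed the pair below 1 there (upper bound 0.953). Neither Snai2 pair was below 1 there beyond counting error, with Sox10 at 0.698 (0.414 to 1.10) and Erbb3 at 0.511 (0.166 to 1.19). The log2 ratio of Sox10 with Snai2 also changed direction without thinning (0.025) and in cells with Y-linked and no Xist UMIs (0.068). In the low bin 8 pairs lay above, with Sox10 and Foxd3 at 6.04 (6 joint cells) and Sox10 and Erbb3 at 3.17 (11 joint cells). The middle bin had 3 pairs above, the high bin 1 and the zero cells none. The share over all genes was not computed for the ungated cells or for single bins. The low, middle and high bins held 1918, 2005 and 1867 thinned cells. The zero cells numbered only 633, none of them with Foxd3, so these counts cannot be compared between groups.

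**Figure D3:**
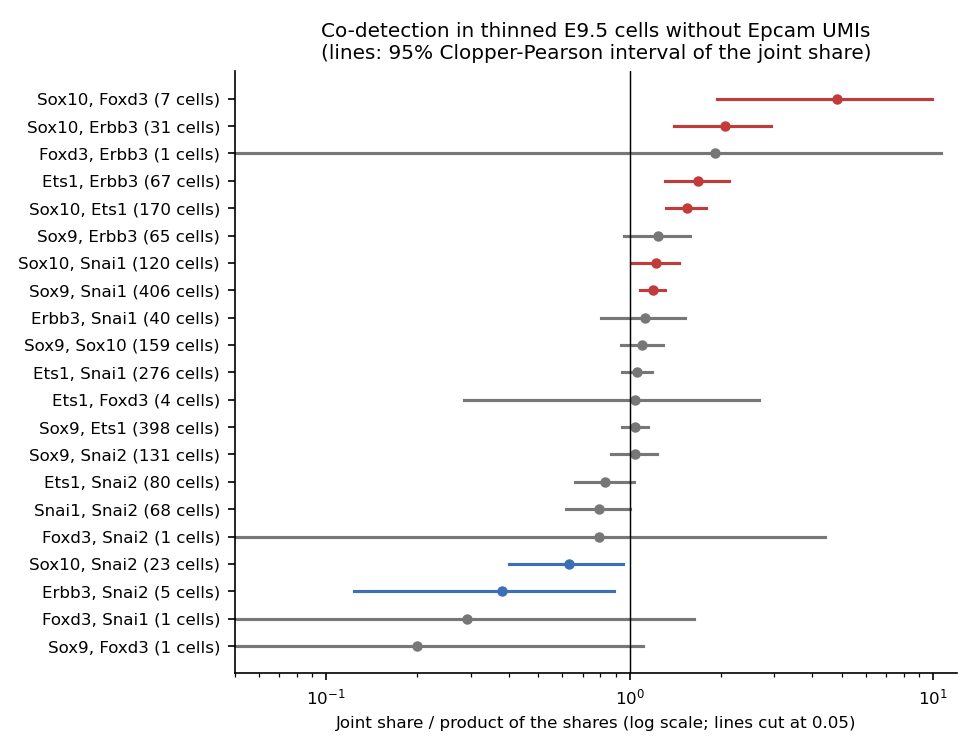
Joint detection of each of the 21 pairs in thinned Epcam-negative E9.5 cells, as the joint share over the product of the shares (x axis, log scale) with 95% Clopper-Pearson intervals; red, interval above 1; blue, below 1; the number of joint cells stands beside each pair. Sox10 with Foxd3 is highest at 4.83 on 7 cells, and Erbb3 with Snai2 is the lowest pair whose interval excludes 1, at 0.381.

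Hand2 marks the distal part of the mandibular arch. Ungated Epcam-negative cells with at least 3 Twist1+Prrx1 UMIs were divided into 832 with a Hand2 UMI and 3828 without. Of the Hand2-positive cells, 406 had a single Hand2 UMI, so cells with low Hand2 fell on both sides. Sox10 measured 29.9 CPM (28.5 to 31.4) in Hand2-negative and 9.60 CPM (8.02 to 11.4) in Hand2-positive cells, and Erbb3 11.1 and 2.68 CPM. Both were called higher in Hand2-negative cells (1.26 and 1.07), where only 9 of 13549 genes, 0.0664%, were. The other 7 were Pou3f1, Ccl6, Ebf2, Phactr1, Plcg2, Fam212a and Fst, named after their values were seen. Ets1 was at 72.2 and 36.6 CPM (0.89), and Foxd3 had 35 UMIs (0.628 CPM) in Hand2-negative and 2 UMIs (0.149 CPM) in Hand2-positive cells. Sox9 (115 and 97.7 CPM) and Snai1 (71.2 and 64.7 CPM) were close to level, and Snai2 was higher in Hand2-positive cells, at 22.3 against 14.5 CPM (-0.49), short of the 2-fold at which 0.849% of all genes were lower. Median depth was 15166 UMIs in Hand2-negative and 16095 in Hand2-positive cells, and summed mesenchymal markers were 1417 and 1556 CPM. The 5 epithelial markers summed to 48.6 and 201 CPM, and their part in these differences was not tested.

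**Figure D4:**
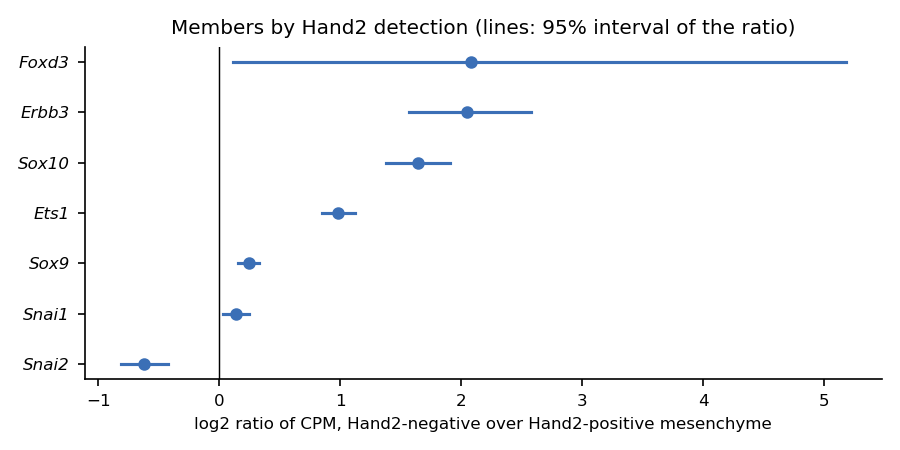
log2 ratio of CPM between Hand2-negative and Hand2-positive mesenchyme-marker cells (x axis; above 0, higher without Hand2) for each gene, with its 95% interval as a line and no CPM added. Erbb3 (2.05), Sox10 (1.64) and Ets1 (0.98) lie to the right, Sox9 (0.24) and Snai1 (0.14) near 0, Snai2 (-0.62) to the left, and the Foxd3 interval is wide (0.12 to 5.18).

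Epcam-positive cells were not uniform. Cells with 1 Epcam UMI (1239 cells) had 1120 CPM of summed mesenchymal markers, close to the 1179 CPM of Epcam-negative cells, and their members were near the Epcam-negative levels, with Sox9 at 93.6 CPM, Snai1 at 57.8 CPM and Sox10 at 21.1 CPM. From 1 Epcam UMI to 10 or more (848 cells), Ets1 went from 67.4 to 5.73 CPM, Snai1 from 57.8 to 5.94 CPM and Sox10 from 21.1 to 2.52 CPM. Sox9 levelled out at 27.6 and 26.1 CPM in the classes of 5 to 9 and of 10 or more UMIs. Snai2 differed least, from 20.6 to 12.8 CPM, and Erbb3 was higher in the top class, at 19.7 against 10.1 CPM. In the 1698 cells with surface ectoderm markers, Erbb3 was at 20.4 CPM, Sox9 at 25.7 CPM, Snai2 at 17.1 CPM, Ets1 at 8.60 CPM, Snai1 at 7.69 CPM and Sox10 at 3.70 CPM. In the 110 endoderm-marker cells Erbb3 (21.5 CPM) and Sox9 (26.9 CPM) were near the ectodermal level, and Snai2 was lower, with 3 UMIs or 1.79 CPM (-1.70), where 0.519% of 12725 genes were lower and 0.841% higher. Compared with these ectodermal cells, ungated cells had higher Snai1 (2.50), Ets1 (2.32), Sox9 (1.86) and Sox10 (1.78), where 1.2% of 14726 genes were higher. Erbb3 (-0.85) and Snai2 (-0.02) were not called, where 4.25% were lower.

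Members were also counted per 100 UMIs of Twist1, a mesenchymal gene, because free RNA of mesenchymal cells could reach other droplets. Epcam-negative cells had 3.95 Sox10 UMIs per 100 Twist1 UMIs (3.79 to 4.12) and endothelial-marker cells 4.01 (2.49 to 6.13), the same proportion within error. Muscle progenitor-marker cells had a lower proportion of Sox10, 1.65 (0.960 to 2.66). Snai1 and Snai2 were above the Epcam-negative proportion in the endothelial-marker cells, at 15.3 (12.0 to 19.3) against 9.81 and 6.92 (4.85 to 9.62) against 3.09. The Snai2 value rested on 38 UMIs in 27 endothelial-marker cells, with up to 10 UMIs in a cell. The Epcam-negative cells include the endothelial-marker and muscle progenitor-marker cells. In ungated cells alone, Snai1 was at 9.73 and Snai2 at 2.46. Free RNA was not measured, and its part in these values and in those that follow was not tested. For Snai2 the proportion was 3.09 in Epcam-negative cells but 32.1 in surface ectoderm-marker and 41.0 in muscle progenitor-marker cells. For Erbb3 it was 1.42 against 38.4 in surface ectoderm-marker and 52.9 in endoderm-marker cells, and for Sox9 15.5 against 48.2 and 66.2. In surface ectoderm-marker cells Snai1 was at 14.5 against 9.81, and Sox10 at 6.97 (5.58 to 8.60) against 3.95.

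**Figure D5:**
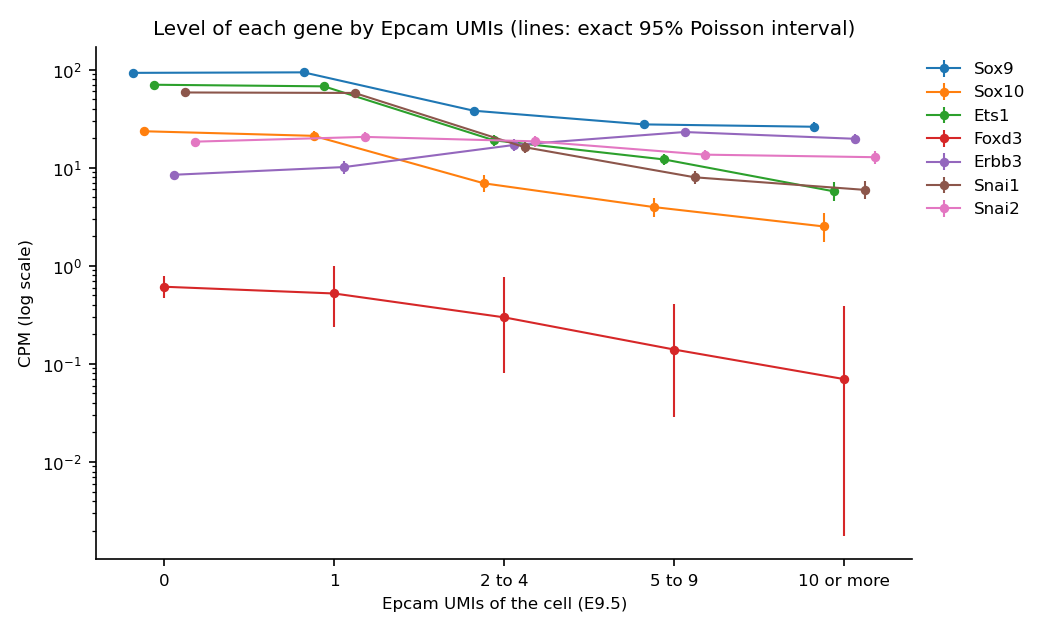
CPM of each gene (y axis, log scale) in E9.5 cells with 0, 1, 2 to 4, 5 to 9 and 10 or more Epcam UMIs (x axis), with 95% Poisson intervals. Levels at 1 Epcam UMI are near those at 0; beyond it Ets1, Snai1, Sox10 and Sox9 are lower, Snai2 moves little (18.4 to 12.8 CPM from the first to the last class), and Erbb3 is higher.

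The E12.0 epithelium had no mesenchyme by its markers (Twist1 0.18 CPM, Prrx1 0.09 CPM) and was a low reference for only 4 of the 7 genes. Ets1 was at 0.873 CPM, Sox10 at 1.39 CPM, Snai1 at 3.37 CPM and Foxd3 at 0 UMIs. By contrast, Snai2 measured 66.8 CPM (65.0 to 68.6) with a UMI in 32.6% of cells, Sox9 54.4 CPM and Erbb3 40.3 CPM. Against it, all E9.5 cells had higher Ets1 (3.29), Snai1 (2.55) and Sox10 (1.82), where 3.88% of 16528 genes were higher. The size of these differences depended on the mitochondrial limit, and the median mitochondrial share was 1.54% at E9.5 and 5.50% at E12.0. With at most 5% mitochondrial UMIs, the log2 ratio without added CPM went from 3.70 to 4.95 for Snai1 and from 5.91 to 5.17 for Ets1. The E9.5 cells had lower Snai2 (-1.67) and Erbb3 (-1.40), where 11.3% were lower, and Sox9 was not called (0.41). The comparison sets a mixed arch against sorted epithelium, so stage and tissue cannot be told apart in it. The libraries also differed in sorting, dissociation, depth and software version. Stage cannot be told apart from these either, also in the narrower comparisons that follow. With Epcam-positive E9.5 cells in place of all cells, Ets1 (2.42), Snai1 (1.70) and Sox10 (1.10) were still higher, where 3.53% of 15680 genes were, and Snai2 lower (-1.76), where 9.46% were, but Epcam-positive cells with 1 Epcam UMI carried mesenchymal markers, as described above. In surface ectoderm-marker E9.5 cells alone, Snai2 remained lower than at E12.0 (-1.70), where 9.1% of 15013 genes were lower, and Ets1 higher (1.21), where 3.48% were. Snai1 (0.60) and Sox10 (0.45) were no longer called in that comparison, and neither were Sox9 (-0.96) and Erbb3 (-0.84). Egfr, an ErbB receptor of epidermis, was also lower at E9.5, at 1.03 against 60.9 CPM. Sox10 at E12.0 rested on 108 UMIs, and Sox9 and Sox10 were found together there in 34 thinned cells against 6.27 (5.42, 3.76 to 7.58). The ratio of this pair was 1.89 (1.29 to 2.68) in Epcam-positive and 1.10 in Epcam-negative E9.5 cells. At E12.0, 4 of the 21 pairs lay above the product and 1 below it. Beside Sox9 with Sox10, those above were Sox10 with Erbb3 (2.21, 1.21 to 3.71), Sox9 with Ets1 (2.39) and Sox9 with Erbb3 (1.36). Sox9 with Snai1 lay below (0.475). The ratio of Sox10 with Erbb3 was 2.06 in Epcam-negative E9.5 cells, so its excess was not limited to them. Of the 21 pairs, 6 lay above the product and none below it in Epcam-positive cells, a mixed group that included the cells with 1 Epcam UMI. The share over all genes was not computed for that group or for the E12.0 cells.

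Genes most like each member were named by the Pearson correlation, over cells, of log2-scaled counts per 10000 UMIs, at 0.3 or above and up to 3 per gene. The cells share a library and differ in depth, so the values are a description. Over the 12744 E9.5 cells and 12470 genes, Sox9 was most like Twist1 (0.43), Prrx1 (0.40) and Nr2f1 (0.38), and Snai1 most like Twist1 (0.43), Nr2f1 (0.39) and Crabp1 (0.37). Ets1 was most like Mef2c (0.39), Fam212a (0.35) and Nr2f1 (0.34), and Sox10 like Nr2f1 (0.33). No gene reached 0.3 with Foxd3, Erbb3 or Snai2. Over the 11355 E12.0 cells the genes were others, with Barx2 (0.45), Foxc1 (0.41) and Dlk1 (0.36) for Sox9 and Fam150b (0.39), Itga9 (0.35) and Col9a1 (0.31) for Sox10.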

How the data were processed

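Mandibular arch cells of 2 libraries, 1 per stage, were measured with 10x Genomics single-cell 3′ v3 chemistry. The deposited values are UMI counts per gene and cell barcode, which the authors made with Cell Ranger on GRCm38 without normalization; the submitters' notes name version 2.0.0, and the file headers 3.1.0 (E12.0) and 6.1.2 (E9.5). Barcodes had already been selected as cells.

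Cells with 200 to 5500 genes and at most 10% mitochondrial UMIs were kept, as in the paper's methods. Counts were summed over cells (Python 3.11.15, numpy 2.4.6, scipy 1.17.1, pandas 2.3.3) with exact 95% Poisson intervals for sums, conditional binomial intervals for ratios and Clopper-Pearson intervals for shares. Total depth was 166191431 UMIs at E9.5 and 77936364 at E12.0. Lineage gates needed at least 3 UMIs over a marker list and at least 2 of its genes, and those with endothelial, muscle progenitor, surface ectoderm and endoderm markers are described. Values of the other gated groups are not reported here. For detection, 11029 cells at E9.5 and 10439 at E12.0 were thinned to 4000 UMIs (1715 and 916 were shallower). Scrublet in scanpy 1.11.5 called 331 (2.60%) and 661 (5.82%) cells doublets, which were kept. A gene was called at a fold of 2 after adding 5 CPM, with 20 UMIs or more. Correlations used log-scaled counts per 10000 UMIs. The fold, interval and co-detection calculations were tested on simulated data, and the gates, thinning, doublet calls and correlations were not. The changed genes simulated were more abundant than Foxd3, Erbb3, Snai2 and Sox10 were over all E9.5 cells. Figures were drawn with matplotlib 3.10.9.

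The 7 genes, the lists and the gates were chosen with earlier results of these data known. All members are named, list genes by largest fold, and others only where stated. Classes by Epcam and Sox10 UMIs, co-detection within groups of cells and similarity at E12.0 were chosen after seeing the data. The division by Hand2 was defined with the gates, but the comparison across it was not a planned result.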

Additional observations from a re-analysis of the deposited data

How the results depend on the processing

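No paired analysis was possible because there was 1 library per stage, and for the same reason no replicate could be left out. The alternatives changed the cell filter, the doublets, the weighting of cells, the depth, the sex of the cells, the fold, the CPM added, the Epcam and Twist1+Prrx1 limits and the UMIs needed for detection. The counts of members higher in Epcam-negative than Epcam-positive cells (3) and at E9.5 than at E12.0 (3) stayed between 2 and 4 under them. Between the high Twist1+Prrx1 bin and the zero cells, genes called in either direction were counted, and this count of 3 became 5 at a fold of 1.5. Erbb3 (0.88) was added there as higher and Snai2 (-0.68) as lower. The share over all genes was not computed at that fold. Pairs co-detected above the product of their shares were the least stable. Their number, 6, was 16 without thinning, 3 among ungated cells, 1 among 1413 thinned cells with Y-linked and no Xist UMIs and 0 when at least 2 UMIs of each gene were needed. The share over all genes was not computed under these alternatives, so these counts cannot be read as particular to the members.

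Of 353 values for single genes and pairs under these alternatives, 263 stayed inside their interval in the main analysis. Another 84 moved outside it, apart from the 6 reversed values below. Direction changed in 18 of the 353, and 6 of these had an interval clear of 0 in the main analysis. Ets1 in the high bin over the zero cells was 0.15 (log2) with each cell weighted equally. Sox9 at E9.5 over E12.0 was -0.23 with Epcam-positive E9.5 cells only. Snai1 in Hand2-negative over Hand2-positive cells was -0.22 in cells with Y-linked UMIs. The log2 co-detection ratio of Sox10 and Snai2 was 0.025 without thinning and 0.068 in cells with Y-linked UMIs, and that of Sox10 and Snai1 was -0.60 at 2 UMIs. The cause was not tested. Foxd3, with 78 UMIs, and its 7 joint cells with Sox10 are limited by depth.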

Other observations

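Among the context genes, Nrp2, a neuropilin receptor of migrating crest and endothelium, measured 263 CPM in muscle progenitor-marker E9.5 cells against 32.7 CPM in ungated cells (log2 fold 2.83), and Id2 630 against 246 CPM (1.34). They were the 2 called higher of 13 crest specifier or migration genes tested, of which 3 were called lower (median -0.55). Of all genes, 2.56% were higher and 0.854% lower in this comparison. Etv2, an Ets factor best known for blood vessel formation, had 41.5 CPM in Epcam-negative and 10.3 CPM in Epcam-positive cells and 18.9 CPM in the high Twist1+Prrx1 bin, while Cldn5, an endothelial claudin, was at 1.61 CPM in that bin and 149 CPM in the zero cells. Of the 10 Ets and endothelial factors listed with Etv2, 9 were called lower in the high bin than in the zero cells and none higher. Of all genes, 5.2% were lower and 0.998% higher. Msx2, a homeobox gene of distal mesenchyme, was the neural plate border gene called between the Hand2 groups, at 37.8 CPM in Hand2-negative and 103 CPM in Hand2-positive cells (-1.34).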
